A study of Homo sapiens with 4 samples.

Results

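The regions described here are FLI1 binding sites that lie away from gene starts, sit on tandem copies of the sequence GGAA, and were called both with and without interferon. FLI1 carrying a Flag tag was overexpressed in HK1, an established cell line from a nasopharyngeal carcinoma, and its binding was mapped by ChIP-seq with an antibody to the tag, which reads the binding of the introduced protein and not of endogenous FLI1. The cells received IFN-γ or, as control, PBS for 24 h, with 1 library and 1 peak list per condition, and the input libraries were not analysed here. A peak of the IFN-γ list was taken when it overlapped a control peak by at least 1 bp, lay more than 3 kb from every transcription start site (TSS) of GENCODE release 44, and held at least 4 uninterrupted tandem copies of GGAA, on either strand, within 100 bp of its summit. This gave 1734 regions, which are 4.37% of the 39654 IFN-γ peaks and 17.5% of the 9887 shared distal peaks. Each of the 1734 had its own control peak among the 30819 of the control list and its own run of copies, and 10 of them overlapped more than 1 control peak. The 8153 shared distal peaks without such a run served for comparison. With 1 library per condition no difference between conditions could be tested. Medians are given with 95% order-statistic intervals, which reflect the spread between regions taken as independent. Shares and single ratios are given with 95% exact binomial intervals, which cover counting error. Neither kind covers variation between libraries.

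FLI1 belongs to the ETS family of transcription factors, whose DNA-binding domain recognises a GGAA core flanked by bases that differ somewhat between family members. In promoters the core usually stands alone in a longer ETS site, whereas long tandem arrays of the core, known as GGAA microsatellites, are best known as binding sites of EWSR1-FLI1, the fusion oncoprotein of Ewing sarcoma that retains the FLI1 DNA-binding domain. IFN-γ signals through JAK kinases to switch on the IRF family and other interferon-response genes.

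The following windows of 201 bp, each centred on the IFN-γ summit, show what the regions look like, from long uninterrupted runs to broken tracts and to a lone short run. They are reference sequence (GRCh38), written 5′ to 3′ on the strand that reads GGAA, with every GGAA core in capitals, and the gene before the colon is the nearest protein-coding gene. ANKRD9 and PODXL had the best mean rank over both lists, CAV1, CCND1, IL1RAP and KDSR are known from Ewing sarcoma, ABCC4 held the longest run (cut by the window), the TP63 window had a longest run of only 4 copies among many scattered cores, and FLT1 held 4 cores on the strand shown.
ANKRD9: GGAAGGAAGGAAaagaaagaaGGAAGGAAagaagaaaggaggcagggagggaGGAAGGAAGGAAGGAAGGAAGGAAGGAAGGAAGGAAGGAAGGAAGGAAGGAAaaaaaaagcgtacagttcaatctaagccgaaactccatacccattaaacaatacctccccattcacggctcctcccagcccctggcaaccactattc
PODXL: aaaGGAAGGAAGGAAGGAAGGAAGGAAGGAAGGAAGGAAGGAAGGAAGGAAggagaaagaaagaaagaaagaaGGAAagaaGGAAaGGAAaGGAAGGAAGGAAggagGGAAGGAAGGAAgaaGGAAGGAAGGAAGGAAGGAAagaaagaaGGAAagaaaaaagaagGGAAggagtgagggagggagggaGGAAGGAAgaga
CAV1: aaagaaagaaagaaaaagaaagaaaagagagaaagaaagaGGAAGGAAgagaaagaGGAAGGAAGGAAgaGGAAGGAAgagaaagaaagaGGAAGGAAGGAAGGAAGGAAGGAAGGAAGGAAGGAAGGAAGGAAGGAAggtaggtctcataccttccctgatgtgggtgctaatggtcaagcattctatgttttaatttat
CCND1: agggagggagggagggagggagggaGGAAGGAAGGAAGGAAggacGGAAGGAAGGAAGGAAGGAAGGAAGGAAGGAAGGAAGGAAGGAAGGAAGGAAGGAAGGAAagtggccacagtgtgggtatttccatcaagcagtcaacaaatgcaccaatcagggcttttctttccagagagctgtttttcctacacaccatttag
IL1RAP: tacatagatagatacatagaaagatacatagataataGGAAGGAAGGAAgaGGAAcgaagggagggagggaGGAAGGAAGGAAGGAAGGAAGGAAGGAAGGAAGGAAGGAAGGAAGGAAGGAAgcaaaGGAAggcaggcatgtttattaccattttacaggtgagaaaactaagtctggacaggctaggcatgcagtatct
KDSR: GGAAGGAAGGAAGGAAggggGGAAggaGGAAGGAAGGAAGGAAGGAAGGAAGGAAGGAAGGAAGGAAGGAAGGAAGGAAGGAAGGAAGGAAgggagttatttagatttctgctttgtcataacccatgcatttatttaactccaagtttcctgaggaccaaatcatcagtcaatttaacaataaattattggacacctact
ABCC4: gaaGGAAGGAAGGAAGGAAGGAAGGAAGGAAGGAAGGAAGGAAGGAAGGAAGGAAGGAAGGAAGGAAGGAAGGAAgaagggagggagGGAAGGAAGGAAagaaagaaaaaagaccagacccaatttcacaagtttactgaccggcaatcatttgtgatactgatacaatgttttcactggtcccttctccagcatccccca
TP63: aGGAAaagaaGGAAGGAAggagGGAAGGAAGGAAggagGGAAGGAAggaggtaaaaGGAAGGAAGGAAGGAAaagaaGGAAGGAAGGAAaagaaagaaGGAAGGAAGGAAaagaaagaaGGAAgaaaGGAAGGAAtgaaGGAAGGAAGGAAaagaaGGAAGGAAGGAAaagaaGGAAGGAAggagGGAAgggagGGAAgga
FLT1: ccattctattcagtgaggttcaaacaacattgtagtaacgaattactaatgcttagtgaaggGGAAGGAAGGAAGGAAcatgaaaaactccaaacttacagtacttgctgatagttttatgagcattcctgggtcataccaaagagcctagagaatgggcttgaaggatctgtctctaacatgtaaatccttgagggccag
The windows lie at chr14:102525522-102525722 (minus strand), chr7:131634370-131634570 (minus), chr7:116562852-116563052 (plus), chr11:69622110-69622310 (plus), chr3:190522213-190522413 (minus), chr18:63377429-63377629 (minus), chr13:95196657-95196857 (plus), chr3:189577656-189577856 (minus) and chr13:28401316-28401516 (minus), in that order. The runs near KDSR, CCND1, IL1RAP, ANKRD9, PODXL and CAV1 were unbroken over 16, 15, 13, 13, 12 and 12 copies. The TP63 window reached 31 cores with gaps of a few bases that mostly kept the purines adenine and guanine.

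The longest run of a region had a median of 11 copies (interval 11 to 12), or 44 bp, with quartiles of 6 and 14 copies. The lengths had a short and a long peak. Runs of 4 copies were the most frequent single length with 192 regions, the number fell to 59 at 8 copies, and it rose again to 185 at 13 copies. The longest runs were 37 copies near ABCC4, 28 near NUP210L, 27 near DLGAP1, 21 near EMSY and 20 in each of 5 regions, of which that near BCAS4 ranked highest in the IFN-γ list. These are lengths in the reference genome, and the alleles of HK1 were not measured.

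The windows held a median of 18 GGAA cores on the strand of the run, those of the run included (quartiles 15 and 21). Counted over both strands the median was 18, against 4 in the other shared distal peaks. The selection required the run, so this difference was in part fixed in advance. More than 1 run was held by 617 windows (35.6%). Of the 344 regions whose longest run was only 4 or 5 copies, 244 (70.9%) still held at least 15 cores. The strand that reads GGAA consisted of purines to a median of 80.6%, and in 225 regions to at least 95%. GGAA lay on the plus strand in 885 regions and on the minus strand in 849. A longer ETS site, GGAAGT preceded by CA or CC on either strand, was present in 0.865% of the windows and in 16.0% of those of the other shared distal peaks. The AP-1 motif TGANTCA, bound by the FOS and JUN families, was present in 2.88% and 35.8%, respectively. A match is a description of the letters and not evidence of a bound site.

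How often such repeats were bound was read from the genome. The assembled chromosomes held 16606 runs of at least 4 copies, of which 14096 were distal, and 3280 of the distal runs (23.3%) lay under a shared peak. The share rose with length: 16.7% of runs of 4 copies (15.7 to 17.6%), 21.7% of 6 to 8 copies (19.9 to 23.6%), 32.7% of 9 to 11 (30.1 to 35.3%), 45.2% of 12 to 14 (42.5 to 47.9%), 51.4% of 15 to 17 (47.2 to 55.6%) and 60.2% of at least 18 copies (48.9 to 70.8%). The intervals of neighbouring classes did not overlap from 6 copies up to 14, and they did overlap beyond. Here and below, the intervals treat runs as independent, although 1 peak can cover several runs, so they are too narrow. Another 20.9% of distal runs lay under a peak of the IFN-γ list only, from 17.4% at 4 copies to 29.4% at 9 to 11 copies and 24.1% at 18 or more. Control-only peaks covered 0.816% of the runs, 115 in all. The IFN-γ list was the longer one, with 39654 peaks against 30819 in control. Among distal IFN-γ peaks, 48.6% of those on the repeat and 46.7% of those off it were shared with control. The larger cover by IFN-γ-only peaks is thus not a trait of the repeat. Runs under no peak fell from 65.2% at 4 copies to 15.7% at 18 or more. The longest run had at least 9 copies in 66.7% of the regions (1156). Of the 14096 distal runs of the genome, 3247 were that long, but this count includes short runs beside longer ones. The unit is thus a region in the first count and a run in the second. Counted run by run, the median was 6 copies under a shared peak and 4 under no peak.

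**Figure D1:**
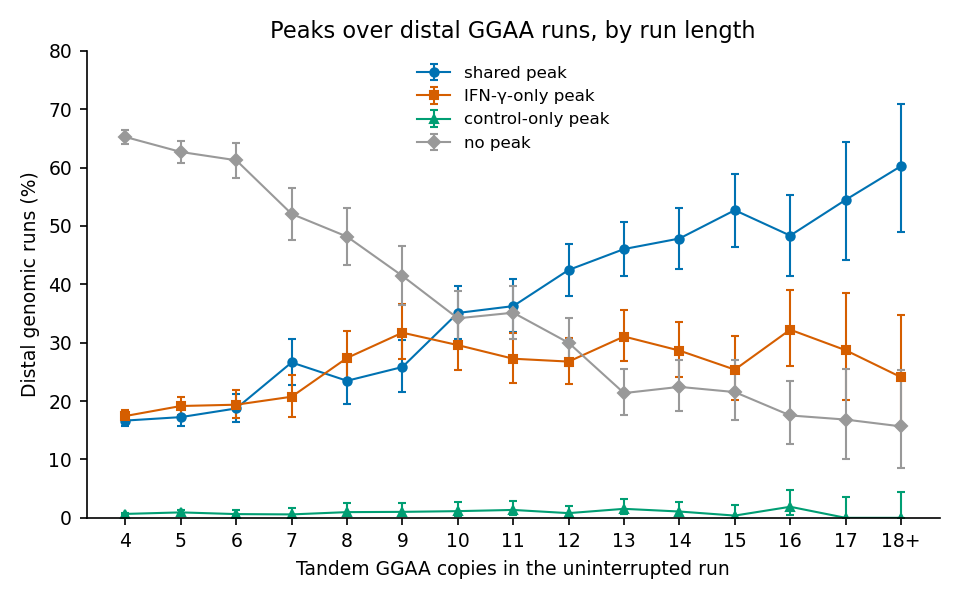
Share of distal genomic GGAA runs (y, percent) under a shared peak, an IFN-γ-only peak, a control-only peak or no peak, by the number of uninterrupted copies (x); bars are 95% exact binomial intervals. The share under a shared peak climbs from 16.7% at 4 copies to 60.2% at 18 or more, and control-only peaks stay near the bottom throughout. The IFN-γ list is the longer one, with 39654 peaks against 30819 in control.

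Peaks over short runs were found mostly where further cores stood nearby. The core counts here include those of the run itself. Among distal runs of 4 or 5 copies with no longer run within 100 bp, 2.57% (75 of 2922, interval 2.02 to 3.21%) lay under a shared peak when at most 9 cores stood within 100 bp of the run centre. The share was 7.62% with 10 to 14 cores, 16.9% with 15 to 19 and 44.6% (321 of 719, 41.0 to 48.4%) with 20 or more. At 20 or more cores the shares for longer runs were 48.0% at 6 to 8 copies (41.0 to 55.1%), 58.8% at 9 to 11 (52.1 to 65.2%) and 62.7% at 12 or more (59.0 to 66.3%). At 10 to 14 cores the unbroken length made more difference, from 7.62% (6.57 to 8.77%) at 4 or 5 copies to 29.3% (24.4 to 34.6%) at 12 or more. Short runs with few cores, such as the FLT1 window, were thus mostly without a peak: 92.3% of the runs of 4 or 5 copies with at most 9 cores lay under none in either list.

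**Figure D2:**
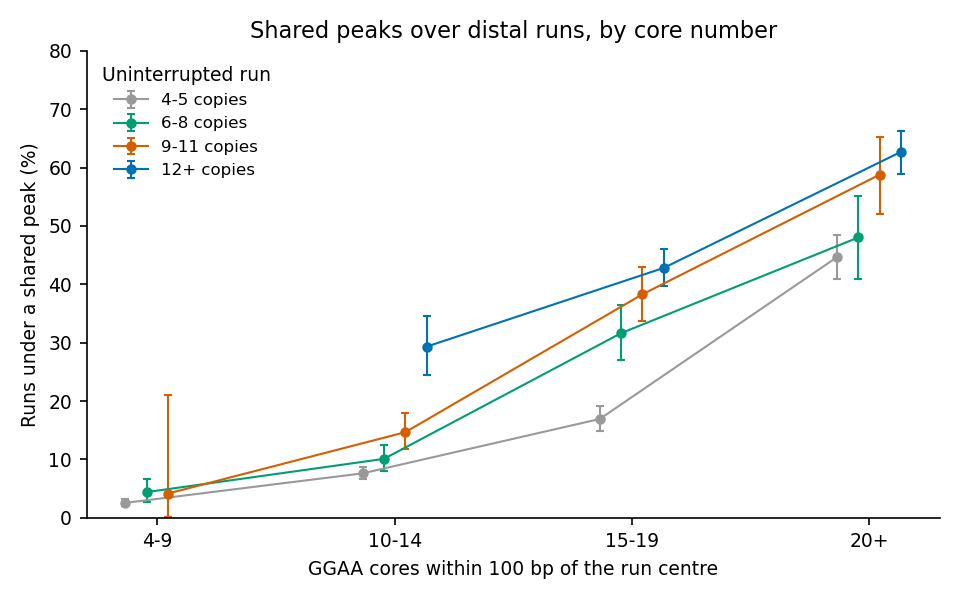
Share of distal genomic runs under a shared peak (y, percent) by the number of GGAA cores within 100 bp of the run centre (x), with one line per length of the uninterrupted run; bars are 95% exact binomial intervals. Every line rises with the number of cores, and runs of 4 or 5 copies go from 2.57% to 44.6%.

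In both libraries most summits lay beside the run rather than inside it. The IFN-γ summit was a median of 32.5 bp from the centre of the run, which the selection kept to about 100 bp, and inside the run in 535 regions (30.9%). The control summit, which played no part in the selection by sequence, was a median of 44 bp away and inside the run in 386 regions (22.3%). Summits of both libraries were a median of 29 bp apart and within 100 bp of each other in 90.7% of the regions, against 84.5% of the other shared distal peaks.

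**Figure D3:**
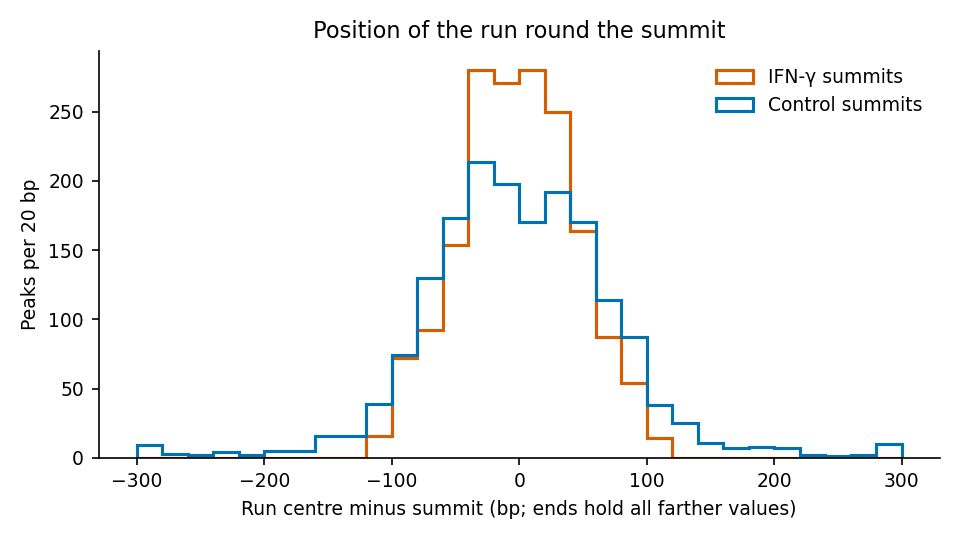
Number of regions per 20 bp bin (y) by the distance of the run centre from the summit (x, bp), for the IFN-γ and the control summits; the outermost bins hold all farther values. Both are centred on 0, with median distances of 32.5 bp for IFN-γ and 44 bp for control, and the control summits have the longer tails.

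The signal is given as the number of fragments piled up at the summit of each library's own peak. Over the regions it had a median of 33 in the IFN-γ library (quartiles 24 and 46, range 9 to 248) and of 14 in the control library (quartiles 11 and 19, range 6 to 72). The other shared distal peaks had medians of 28 and 16, so the repeat regions were the higher ones with IFN-γ and the lower ones in the control. Fold enrichment over the local background showed the same order, with medians of 11.1 in IFN-γ and 6.49 in control on the repeats against 7.76 and 6.74 elsewhere. The local background itself was lower on the repeats, at medians of 1.86 fragments (IFN-γ) and 1.28 (control) against 2.63 and 1.501. In the ranking of each list by p-value the regions stood at a median of 24.7% from the top with IFN-γ and 55.4% in control. The top 10% of the IFN-γ list held 277 of them and the top 10% of the control list held 22. The IFN-γ list is the longer one, and weak peaks added to a list lift the percent rank of the rest, so these ranks do not measure a change between the conditions.

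To set the libraries on one scale, the IFN-γ pileup was divided by 1.46, the ratio of the lowest backgrounds of the lists. The scaled IFN-γ median was then 22.7 fragments against 14 in control, and the median ratio of IFN-γ to control was 1.55 (1.51 to 1.57), with single values from 0.412 to 5.27. The ratio was 1.17 (1.16 to 1.19) over the other shared distal peaks, 0.996 over all shared peaks and 0.870 over the shared promoter peaks, and it was 1.60 (1.55 to 1.67) over the 392 shared promoter peaks that also held the repeat. Shared distal peaks without the repeat had a median of 1.28 where they held the longer ETS site and of 1.30 where they held the AP-1 motif.

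Counts gave the same order. The ratio exceeded 1 in 1553 of the regions (89.6%), against 49.6% of all shared peaks and 64.9% of the other shared distal ones. It reached 2 in 396 (22.8%), against 7.35% of all shared peaks, and was at most 0.5 in 2, against 5.66%. The counting interval lay wholly above 1 in 518 regions (29.9%, against 11.6%) and wholly below 1 in none (against 9.06%). For most single regions the counts were therefore too few to tell the libraries apart. The shared distal peaks were also cut into 4 equal classes by the sum of scaled IFN-γ and control pileup. From the lowest class up, the median ratios were 1.20, 1.49, 1.65 and 1.77 on the repeat, against 1.00, 1.09, 1.27 and 1.46 off it. The sum contains the IFN-γ pileup of the ratio itself, so these classes do not hold signal fixed. The part of signal level in the ratios was not tested. All of these ratios set 1 library against 1 library, and a difference in ChIP efficiency or in the amount of tagged protein cannot be told apart from an effect of IFN-γ.

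**Figure D4:**
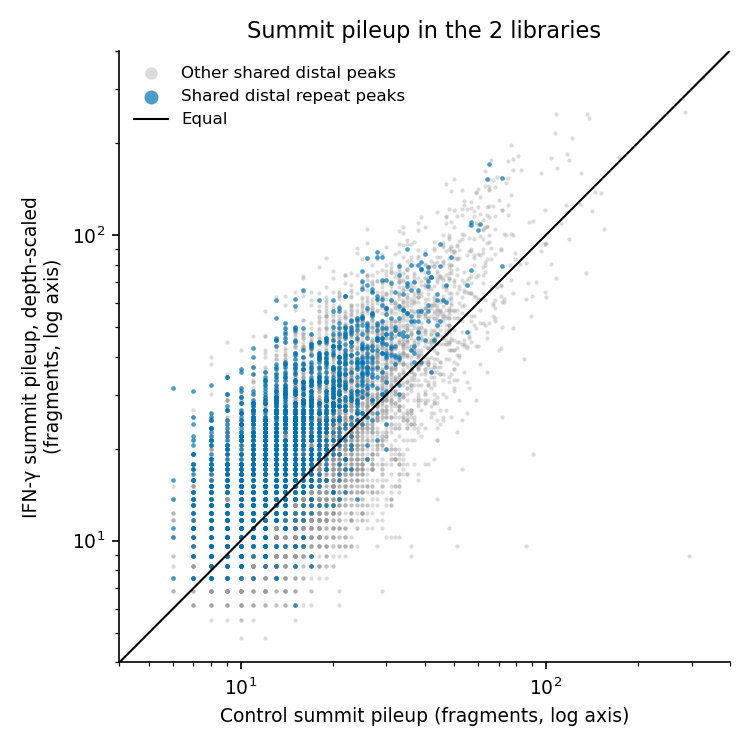
Depth-scaled IFN-γ summit pileup (y, fragments, log axis) against control summit pileup (x, fragments, log axis) for the 1734 shared distal repeat peaks over the other shared distal peaks; the line marks equal values. Of the repeat peaks 89.6% lie above the line, against 64.9% of the others.

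The ratio also moved with base composition. Within 100 bp of the summit the regions had a median GC content of 46.3%, against 49.3% in the other shared distal peaks, and the classes below were chosen after the values had been seen. From under 40% to over 55% GC, the median ratio fell from 1.43 to 0.967 over the other shared distal peaks and from 1.48 to 0.795 over shared promoter peaks. Over the repeat regions it fell from 1.65 (1.55 to 1.79, 239 regions) to 1.39 (1.24 to 1.55, 96 regions). In each of the 5 classes the repeat regions stood above both, for example at 1.56 against 1.23 and 1.24 between 45 and 50% GC, although the interval of the 239 regions under 40% GC overlapped that of the promoter peaks. The part of base composition in the lower ratios elsewhere was not tested.

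**Figure D5:**
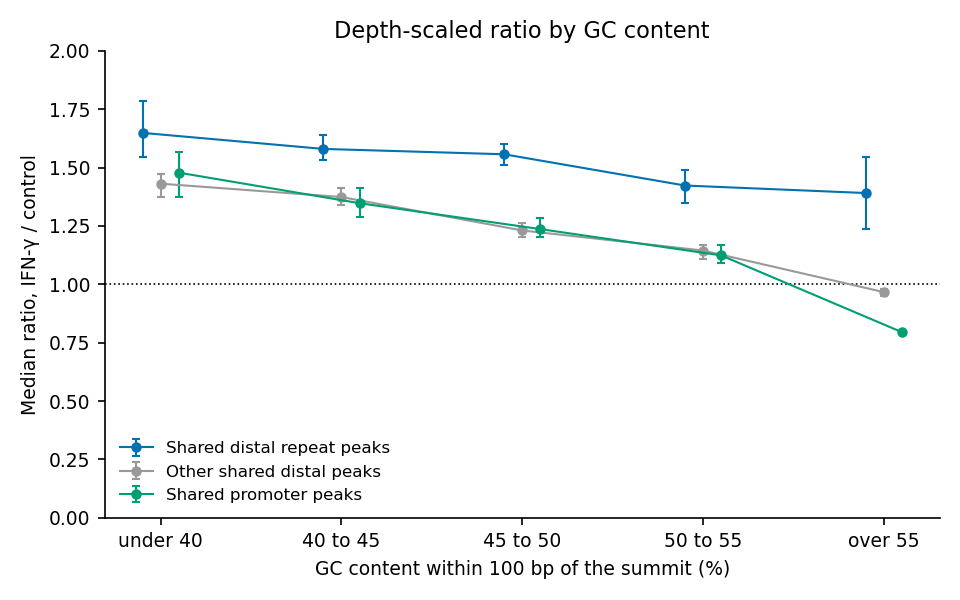
Median depth-scaled ratio of IFN-γ to control pileup (y) by GC content within 100 bp of the summit (x, percent) for shared distal repeat peaks, other shared distal peaks and shared promoter peaks; bars are 95% order-statistic intervals and the dotted line marks a ratio of 1. All 3 lines fall with GC content, and the repeat peaks lie highest in each class, from 1.65 to 1.39.

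Longer repeats had somewhat more signal in both libraries but no clearly larger ratio. The median pileup was 29 with IFN-γ and 13 in control at 4 copies, 32 and 14 at 9 to 11 copies, and 37 and 16 at 15 to 17 copies. The median ratios of the 7 length classes lay between 1.44 and 1.59 with overlapping intervals. By number of cores, the pileups went from 26.5 and 12.5 in the 60 regions with at most 9 cores to 40 and 17 in the 199 regions with 25 or more, and the ratio from 1.32 (1.14 to 1.60) to 1.60 (1.55 to 1.68). The ratio rose at each class between, from 1.48 (1.41 to 1.53) at 10 to 14 cores to 1.59 (1.53 to 1.65) at 20 to 24. Across the 1734 sites Spearman's rho with the IFN-γ pileup was 0.173 for copies and 0.229 for cores. With the ratio it was 0.040 for copies, 0.102 for cores and 0.147 for the percentage of purines. The points of these correlations share their libraries and are given as a description.

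The 10 strongest regions by mean rank over both lists each had a higher scaled pileup with IFN-γ, as did 89.6% of all the repeat regions. Their ranks already include the IFN-γ signal, so their ratios are given as a description. The region near ANKRD9, an ankyrin repeat protein, had a pileup of 248 with IFN-γ and 65 in control, a ratio of 2.62 (1.99 to 3.50). That near PODXL, which encodes the sialomucin podocalyxin, had 223 and 72, a ratio of 2.13 (1.62 to 2.81). Its control peak ended at position 131633895, before the IFN-γ summit at 131634470 and the run starting at 131634520. The PODXL ratio therefore sets different positions against each other, and the 72 control fragments were not on the run. The region 57.8 kb from the start of PTPN1, a tyrosine phosphatase that acts on JAK kinases among others, had 221 and 64, a ratio of 2.37 (1.79 to 3.18). Each of these 3 intervals lay above 1.

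Further regions among these 10, not listed in the order of their rank, follow. In an intron of LPAR1, a receptor for lysophosphatidic acid, the pileup was 160 with IFN-γ and 57 in control, a ratio of 1.93 (1.42 to 2.66). Near SCEL, a precursor of the cornified envelope of squamous cells, it was 157 and 57, a ratio of 1.89 (1.39 to 2.61). Near UBE2G1, a ubiquitin-conjugating enzyme, it was 158 and 61, a ratio of 1.78 (1.32 to 2.43), and in an exon of BASP1 it was 151 and 60, a ratio of 1.73 (1.27 to 2.37). For 2 more of the 10 the counting interval included 1: in an intron of the gene ENSG00000286251, with FAT4 as the nearest protein-coding gene at 1023 kb, the pileups were 100 and 55, a ratio of 1.25 (0.890 to 1.77), and in an intron of CDKAL1 they were 115 and 72, a ratio of 1.10 (0.810 to 1.49).

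The extremes of the ratio, among regions with a summed pileup of at least 40, are given as a description, since they were chosen by it. In what follows the gene is the nearest protein-coding one. The highest were 264 kb from C16orf95 with 46 fragments in IFN-γ and 6 in control (ratio 5.27), in an intron of NYAP2 with 89 and 13 (4.70), 94.1 kb from SKIDA1 with 45 and 7 (4.42) and 389 kb from COG6 with 96 and 16 (4.12). The lowest were 59.4 kb from KLHL29 with 20 and 24 (0.572), 13.2 kb from TMEM212 with 20 and 21 (0.654), in an intron of FLT1 with 21 and 22 (0.656) and 123 kb from ATP11B with 29 and 30 (0.664). The counting interval of each of these 4 lowest included 1. The FLT1 and TMEM212 windows held 4 and 6 cores on the strand of the run, while the other 6 of these 8 regions held between 15 and 28.

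The 5 longest runs differed widely in signal. The 47 regions with at least 18 copies had median pileups of 35 with IFN-γ and 16 in control. The run of 37 copies in an intron of ABCC4, a multidrug transporter, had 41 fragments with IFN-γ and 16 in control, and the run of 27 copies in an intron of DLGAP1 had 19 and 9. The other values were higher, on 28 copies in an intron of NUP210L (89 and 46), on 21 copies in an intron of EMSY (101 and 35) and on 20 copies near BCAS4 (128 and 28, ratio 3.14, interval 2.07 to 4.91). BCAS4 is 1 of 5 regions with 20 copies, and another of them, whose nearest protein-coding gene is NKX2-2, had only 27 and 14, a ratio of 1.32 (0.671 to 2.73).

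By position, 866 of the summits (49.9%, 47.6 to 52.3%) lay in introns, 859 (49.5%, 47.2 to 51.9%) were intergenic and 9 were exonic. In the other shared distal peaks the shares were 54.0% (52.9 to 55.1%), 42.6% (41.5 to 43.7%) and 3.36%, so the repeat regions were more often intergenic. This was not particular to them. Of the distal repeat peaks in the IFN-γ list only, 51.1% (48.7 to 53.4%) were intergenic. Of the 14096 distal runs of the genome, 6890 lay within genes. Introns of protein-coding genes held 33.0% of the repeat regions and 40.8% of the others. The median distance to the nearest TSS was 17.2 kb, against 13.2 kb, and to that of a protein-coding gene 44.1 kb, against 26.5 kb. Within genes, GGAA was read on the strand of the gene in 288 regions and on the opposite strand in 587 (32.9% on the same strand, 29.8 to 36.1%). This imbalance was present in the genome itself, where 36.6% of all distal runs within genes read GGAA on the gene's strand, and among runs of at least 9 copies the share was 32.9% under a shared peak and 32.6% under no peak. The intervals of the ratio overlapped between places, with a median of 1.56 (1.52 to 1.60) in introns and 1.52 (1.49 to 1.56) between genes.

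The regions were spread over the autosomes and X, from 148 on chromosome 1 to 15 on chromosome 21. Of the distal runs of at least 9 copies, 61.1% (48.9 to 72.4%) lay under a shared peak on chromosome 17 and 54.3% (43.6 to 64.8%) on chromosome 20. The share was 18.9% (10.7 to 29.7%) on chromosome 18, 8 of 47 (7.65 to 30.8%) on chromosome 21 and 27.0% (20.8 to 33.9%) on X. The median pileups of the regions were 25 and 12 on chromosome 18, 26 and 12 on X, and 38 and 15 on chromosome 20. The copy number of these chromosomes in HK1 was not measured, and its part in these shares was not tested. The median ratio was above 1 on each chromosome that held regions, from 1.26 on chromosome 18 to 1.71 on chromosome 20.

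Nearest genes describe position and do not show which gene, if any, a region acts on. The regions had 1425 different nearest protein-coding genes, 7.11% of the 20033 annotated, of which 61 were nearest to at least 3. Most regions were assigned to TBL1XR1, a subunit of corepressor complexes, and VRK1, a kinase, with 6 each. The 6 near TBL1XR1 ranged from 26 to 101 fragments with IFN-γ and from 10 to 31 in control, with ratios from 1.64 to 2.64. The 6 nearest VRK1, up to 899.7 kb away, ranged from 22 to 73 and from 10 to 32, with ratios from 1.28 to 2.56.

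Of 30 genes known as EWSR1-FLI1 targets or from Ewing sarcoma, 10 were the nearest protein-coding gene of at least 1 region, often with another gene closer, against 7.11% of all protein-coding genes. The regions were chosen by the repeat, which is itself known as a binding site of EWSR1-FLI1. The share of these genes is therefore not independent of the selection and is given as a description. The 10 genes had 17 regions in all, and the ratio exceeded 1 in each of the 17, as it did in 89.6% of all the repeat regions. The counting interval lay above 1 in 6 of the 17, against 29.9% of all the repeat regions. At CAV1, which encodes the caveolae coat protein caveolin, the region 36.2 kb from the TSS had 92 fragments with IFN-γ and 22 in control, a ratio of 2.87 (1.79 to 4.80). At CCND1, which encodes cyclin D1, the region 18.8 kb away had 62 and 31, a ratio of 1.37 (0.879 to 2.19). At IL1RAP, a coreceptor of interleukin-1, the intronic region had 49 and 12, a ratio of 2.80 (1.47 to 5.79). At KDSR, an enzyme of sphingolipid synthesis, the region lay 10.1 kb from the TSS, in an intron of KDSR-DT. That region had 67 and 13, a ratio of 3.54 (1.94 to 6.99). Of these 4 intervals only that of CCND1 included 1. The other 3 intervals above 1 were those of the ID2 region and of 2 of the 6 VRK1 regions. The intervals of the regions of NKX2-2, SOX2, STEAP1 and JAK1 included 1.

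Of 32 genes of the IFN-γ response and kynurenine pathway, 4 had a region nearest to them among protein-coding genes (against 7.11% of all protein-coding genes), and the ratio exceeded 1 in 3 of these 4 regions (against 89.6% of all the repeat regions). The region 12.8 kb from SOCS3, a feedback inhibitor of JAK signalling, had 50 fragments with IFN-γ and 9 in control, a ratio of 3.82 (1.86 to 8.83). An intron of JAK1, the kinase itself, had 33 and 12, a ratio of 1.89 (0.951 to 4.02), and a region 188 kb from IRF8 had 43 and 25, a ratio of 1.181 (0.705 to 2.02). In an intron of KMO, the kynurenine 3-monooxygenase, the pileups were 15 and 11, a ratio of 0.937 (0.402 to 2.25). Only the interval near SOCS3 lay above 1. None of the 10 genes on which the study itself centred had a region nearest to it.

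Of 22 squamous and epithelial genes, 5 had 9 regions nearest to them among protein-coding genes (against 7.11% of all protein-coding genes). The ratio was above 1 in each of the 9, against 89.6% of all the repeat regions, and the counting interval in 2 of them, against 29.9%. Near TP63, a master regulator of squamous epithelium, 3 regions had pileups of 136, 82 and 34 with IFN-γ and 45, 21 and 18 in control, with ratios of 2.08 (1.47 to 2.98), 2.68 (1.64 to 4.56) and 1.30 (0.712 to 2.44). With another region, nearest TPRG1, they formed 1 of the 2 largest groups of regions chained by gaps of at most 100 kb, and the other lay near EXT1, a heparan sulphate polymerase. The first of these TP63 regions had 4 runs of at least 4 copies, separated by a few bases. The other genes of the list were SOX2, GRHL2, KLF5 and TFAP2A. Of 23 genes of the ETS family, 5 had 1 region each (against 7.11% of all protein-coding genes). Unscaled pileups with IFN-γ and in control were 56 and 19 at 42.2 kb from ELF2 and 36 and 24 at 426 kb from ETS1. Near ELF1 (72.3 kb) they were 30 and 16, near ELF4 (7.24 kb) 25 and 11 and near ETS2 (6.14 kb) 19 and 12. The scaled ratio exceeded 1 in each of the 5, against 89.6% of all the repeat regions. It was lowest near ETS1, at 1.03 (0.598 to 1.81). The counting interval lay above 1 in 1 of the 5, that near ELF2, against 29.9%. Over the whole set, 322 regions (18.6%) were linked to another by a gap of at most 100 kb.

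The limits of the selection cut through gradual changes. The 204 regions with exactly 4 copies in the window had median pileups of 29 and 13 and a ratio of 1.53 (1.44 to 1.60). The 193 shared distal peaks with exactly 3 copies, just outside, had 24 and 13 and a ratio of 1.37 (1.26 to 1.45). At 3 to 4 kb from a TSS the 80 regions had a median ratio of 1.53 (1.26 to 1.66), and the 104 shared peaks on the repeat at 2 to 3 kb had 1.63 (1.47 to 1.77). The nearest to the distance limit was 3.001 kb from the start of NEUROD6, with 71 and 32 fragments. Among distal IFN-γ peaks, 48.6% of those on the repeat (47.0 to 50.3%) and 46.7% of those off it (46.0 to 47.4%) were shared with control. The 1833 distal repeat peaks of the IFN-γ list without a control partner had a median pileup of 17 and 15 cores.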

How the data were processed

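The deposited peak lists give, in the caller's standard format, fold enrichment as a ratio, −log10 p-values and −log10 q-values for each peak, and a display score that was not used. The authors aligned reads with Bowtie2 2.3.4.1 after trimming with cutadapt 1.18 and called peaks for each library with MACS2 2.1.2 (names and versions from the submitters' processing notes). Because the fold in these lists is (pileup + 1)/(background + 1), the whole pileup and the local background of every peak were solved from the fold and its −log10 p-value (largest relative error 6.21e-06). Read totals are not in the lists, so depth is known only relatively, as the ratio of lowest backgrounds, 1.5362 to 1.0551. The control partner was the control peak with the longest overlap. Positions, genes and repeats came from GRCh38 and GENCODE release 44. Scripts used Python 3.11.15, numpy 2.4.6, pandas 2.3.3 and scipy 1.17.1 and were tested on simulated data. Named regions were the 10 best by mean rank, the 5 longest runs, the 4 highest and 4 lowest ratios at a summed pileup of 40 or more, those nearest to listed genes or to the limits, and the genes with most regions. Regions and gene lists were chosen with earlier results of these data known. No test between conditions was possible. Gene expression was not analysed here, so the identity of HK1 was not checked against markers. One of the regions with the best mean rank is not reported here.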

Additional observations from a re-analysis of the deposited data

How the results depend on the processing

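Under other settings 58 recomputed values stayed within the 95% interval of the reported value or within 1.5 times a reported count. Another 8 moved further, and the direction of the ratio turned in none. The median ratio stayed above 1 in each of 15 settings, between 1.52 and 1.78. Scaling to a median of 1 over shared promoter peaks gave a ratio of 1.78 with 95.5% of regions above 1. Fold enrichment in place of scaled pileup gave 1.68 and 91.3%. With a limit of 10 kb from every TSS, 44.6% of summits were intronic. The share of distal runs under a shared peak was 22.0% when runs were joined across at most 4 bp, and 19.01% when the run had to lie within 100 bp of the summit. Less the local background, the median IFN-γ pileup was 30.9. No paired analysis was possible because 1 library stands for each condition. Pileups near 14 in control limit single regions, and the ratio of the libraries depends on the scaling chosen.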
